A study of Oryza sativa with 12 samples.

Results

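A set of 68 rice genes had a higher transcript level in the leaf of an f3h line than in wild-type leaf, and a lower level in f3h root than in wild-type root. The set was chosen from the read counts of 12 RNA-seq libraries. Counts were scaled to CPM (counts per 1000000 of the library total) and averaged over the 3 libraries of each group. A gene was taken when its mean was at least 1 CPM in all 4 groups, when (f3h + 0.5)/(wild type + 0.5) was at least 2 in leaf, and when the same ratio was at most 0.5 in root. The level minimum was met by 16711 of the 37960 genes counted, and 68 of these met both ratios and are described here. A further 2 loci that met the thresholds are not reported here. Since the leaf and the root difference chose the members, both are given below as descriptions, without tests.

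The wild type (WT) was the rice cultivar ZH11. The other genotype is labelled f3h, after flavanone 3-hydroxylase, the enzyme that turns flavanones into dihydroflavonols in flavonoid synthesis. The sample labels class it as a knockdown, while the series' design text speaks of CRISPR mutants. Neither gives the targeted locus, the edited sequence or the number of independent lines, so the targeted gene could not be checked in these libraries. All plants were 1 month old and were raised in hydroponic culture in Kimura solution at 28 °C with 12 h of light and 12 h of dark. Leaf and root of each genotype were represented by 3 libraries each. Whether the 3 came from different plants is not stated, so each adjusted p below reflects the spread between libraries only, and that spread may be technical.

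Library totals ran from 23740780 to 37821918 counts. One library stood apart. Replicate 1 of WT leaf correlated with the other WT leaf libraries at Pearson's r of 0.969 and 0.967 across the 16711 genes, while all other replicate pairs lay between 0.987 and 0.993. Without this library 68 genes met the thresholds, 58 of them among the 68 described here. The labelled organs matched their markers. The summed level of 7 leaf markers was 35047 to 42509 CPM in WT leaf, 30405 to 30751 CPM in f3h leaf, 5.53 to 6.23 CPM in WT root and 67.7 to 69.8 CPM in f3h root, with each of them detected in every group. The summed level of 9 root markers was 4260 to 4443 CPM in WT root, 3835 to 3858 CPM in f3h root, 11.8 to 18.8 CPM in WT leaf and 11 to 15.04 CPM in f3h leaf. CASP1 and 1 further root marker had no count in WT leaf, and NAR2.1 had none in f3h leaf. The leaf marker sum was thus lower in f3h leaf and higher in f3h root than in WT, and the root marker sum was lower in f3h root, each without overlap. By edgeR, 1 leaf marker was called higher and 2 lower of 7 tested in leaf, 6 of 6 higher in root, and 7 of 9 root markers lower in root. The shares over all genes tested were 17.9% higher and 18.6% lower in leaf, and 24.9% higher and 25.4% lower in root. The part of the markers in the results was not tested.

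Several of the members that carry a name belong to processes that plants run in both organs. Secondary walls, which stiffen the water-conducting vessels and the fibres of leaf and root alike, are made of cellulose spun by complexes of CESA proteins, of xylan, and of lignin, which laccases polymerize by oxidizing monolignols. Plasma membrane aquaporins of the PIP group are membrane channels, most of which conduct water, and they set how easily water passes between root cells and into the vessels. Chitinases cut the chitin of fungal walls and are among the pathogenesis-related proteins.

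The 68 members spanned a wide range of change. The log2 ratio in leaf, on the (CPM + 0.5) scale, ran from 1.03 to 4.87 with a median of 1.54, and in root from -3.18 to -1.01 with a median of -1.36. The medians over the 16711 genes at 1 CPM or more were -0.03 and 0.07. The ratio was at least 4 in leaf for 19 members and at least 8 for 5, while 4 members were at least 4-fold lower in root and 3 did both. For 27 members the change was under 3-fold in both organs. The leaf change was larger than the root change in 44 members and smaller in 24.

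**Figure D1:**
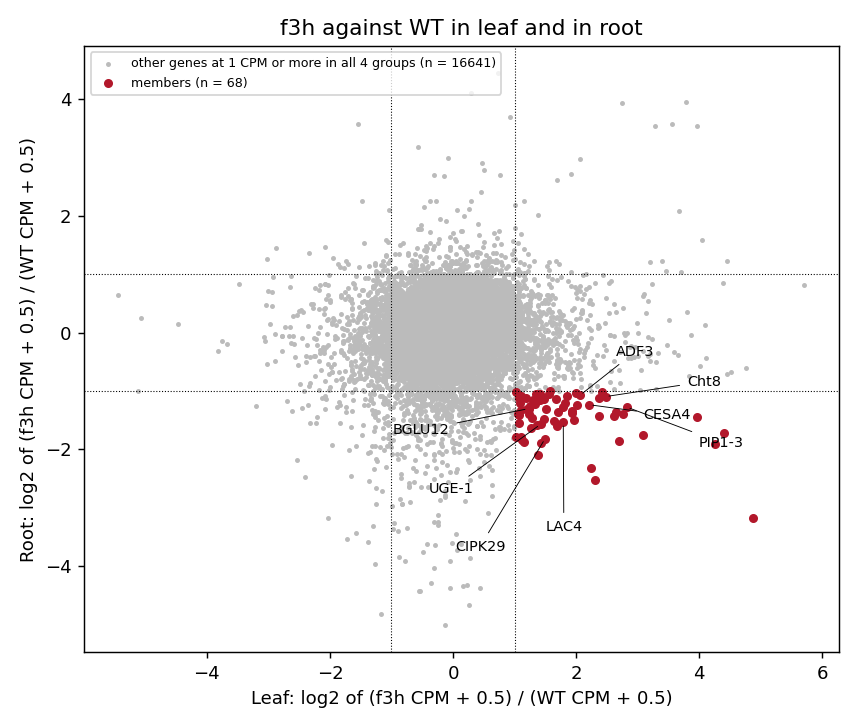
Log2 ratio of f3h over WT in root (y axis) against the same in leaf (x axis), both on the (CPM + 0.5) scale, for genes at 1 CPM or more in all 4 groups. Red points are the 68 members, grey points the other genes, and dotted lines mark 2-fold changes. The members fill the lower right corner by construction, with 1 locus, Os11g0592000, far beyond the rest at 4.87 in leaf and -3.18 in root.

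Every member was separated from WT in both organs. In all 68, each f3h leaf library lay above each WT leaf library, as in 25.5% of all genes at 1 CPM or more, and each f3h root library lay below each WT root library, as in 25.4% of them. Both held at once for 6.47% of those genes. In edgeR's quasi-likelihood fit over all genes, 68 of 68 members were past an adjusted p of 0.05 as higher in f3h leaf (background 17.9%), lower in f3h root (background 25.4%) and different between the organs, with the root effect below the leaf effect (background 17.4%). Over all genes tested, the leaf fit called 36.5% in either direction, with 18.6% lower, the root fit called 50.3%, with 24.9% higher, and the interaction called 33.4%. Nothing is read from the members' counts, because the same contrasts chose the members.

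The summed level of the members was taken in each library. Its shift between genotypes follows from the choice of members, and whether members varied together across libraries was not tested. Summed over the members, the level was 1193, 1097 and 1160 CPM in WT leaf against 5281, 5349 and 5253 CPM in f3h leaf. In root the sum was 5373, 5506 and 5335 CPM in WT and 2173, 2178 and 2161 CPM in f3h. The f3h root sum lay between the sums of both leaf genotypes, and the f3h leaf sum came near the WT root sum, which rested on 1 locus, Os03g0103200. Without that locus the sum was 3108 to 3160 CPM in f3h leaf and 5213 to 5369.6 CPM in WT root. Spread between replicates was unequal among the groups. The median SD of log2 CPM over the members was 0.27 in WT leaf, 0.10 in f3h leaf, 0.09 in WT root and 0.19 in f3h root, where the medians over all genes at 1 CPM or more were 0.20, 0.10, 0.11 and 0.11. By its median log2 ratio to the other WT leaf libraries, -0.17, the first replicate was the lowest of WT leaf, although its sum was the highest. That high sum rested on Os03g0103200. Without this locus the WT leaf sums were 825, 906 and 953 CPM, with the first replicate lowest.

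**Figure D2:**
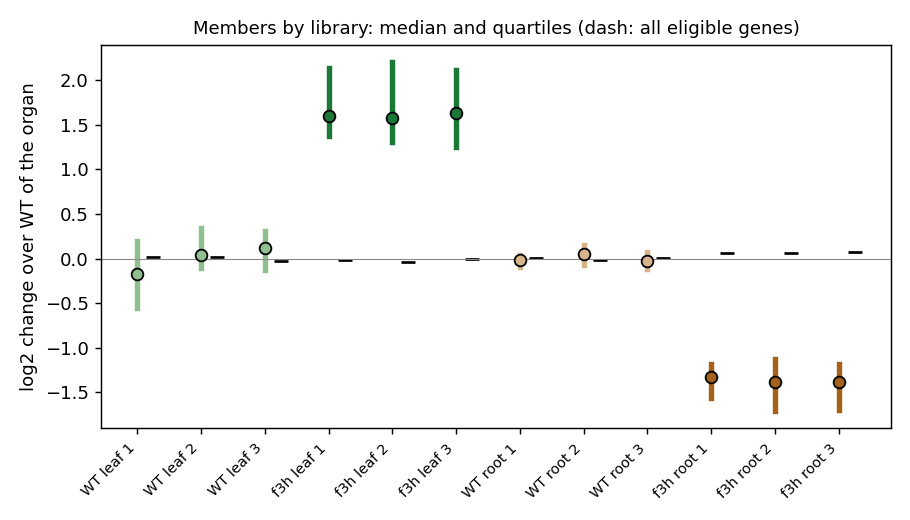
Log2 ratio of each library to WT of its organ (y axis; a WT library is set against the other WT libraries) for the 12 libraries (x axis). Circles are medians over the 68 members, bars run from the lower to the upper quartile, and dashes are medians over all genes at 1 CPM or more. The 3 f3h leaf libraries have medians of 1.58 to 1.63 and the 3 f3h root libraries of -1.39 to -1.32, while the dashes stay near 0.

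The choice was repeated with 1 library of each group left out, although every library had entered the choice of the 68. When the members were chosen again from 2 replicates of every group, the choice took 70, 73 and 77 genes with replicate 1, 2 or 3 left out, of which 55, 59 and 61 were among the 68. In the left-out libraries, 1 per group, all 70, 73 and 77 genes were again higher in f3h leaf and lower in f3h root, as were 19.6%, 18.8% and 22.8% of all genes at 1 CPM or more. The 2-fold thresholds were met again in both organs by 49, 46 and 49 of them, against 0.631%, 0.511% and 0.626% of all genes. The median log2 ratio in the left-out libraries was 1.77, 1.49 and 1.43 in leaf and -1.25, -1.28 and -1.30 in root. The left-out libraries belonged to the same groups, and whether they came from different plants is not stated. The repeat therefore describes only how alike the libraries of a group were. Genes chosen for 2-fold differences between means of such alike libraries could hardly lose their direction, so the kept directions add no support for the set. The shares over all genes were not matched to the chosen genes for size of change, and so do not show what the choice alone would give.

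Most members had more transcript in root than in leaf in the wild type, and fewer had in f3h. In WT the mean level was higher in root than in leaf for 54 of the 68 members (79.4%), compared with 67.0% of all genes at 1 CPM or more. In f3h it was higher in root for 22 members (32.4%), compared with 69.8% of all genes. The order turned from root to leaf in 32 members, stayed with root in 22 and stayed with leaf in 14, and no member turned from leaf to root. Over all genes 1074 turned from root to leaf and 1548 from leaf to root. The median log2 ratio of root over leaf was 2.13 in WT and -1.04 in f3h, against 0.44 and 0.53 over all genes. The drop between genotypes follows from the choice of members, and the WT levels entered the ratios that chose them, so neither share is independent of the choice. The level in f3h leaf exceeded that in WT root for 29 members and stayed below it for 39, and f3h root stayed above WT leaf for 41.

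**Figure D3:**
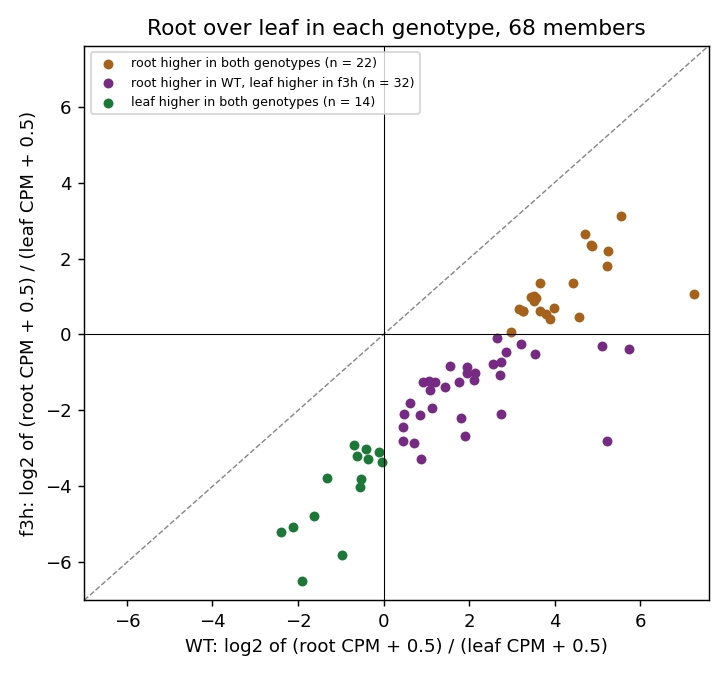
Log2 ratio of root over leaf, on the (CPM + 0.5) scale, in f3h (y axis) against WT (x axis) for the 68 members. Colours mark the 22 members higher in root in both genotypes, the 32 higher in root in WT and in leaf in f3h, and the 14 higher in leaf in both. All points lie under the dashed line of equal ratios, as the choice of members requires.

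Names could be given to 8 members, and the other 60 are known here by locus only. A secondary wall cellulose synthase, CESA4 (Os01g0750300), was among the 8. Its level was 17.1, 12.3 and 10.8 CPM in WT leaf against 65.1, 64.5 and 62.5 CPM in f3h leaf. In root it was 133, 125 and 127 CPM in WT and 53.2, 53.0 and 56.1 CPM in f3h. The genotypes did not overlap in either organ, and f3h leaf and f3h root lay closer to each other, at a log2 ratio of root over leaf of -0.24, than the WT organs, at 3.22. The fitted log2 fold change was 2.29 ± 0.16 (SE, n = 3 against 3) in leaf and -1.28 ± 0.06 in root.

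LAC4 (Os01g0842500), a laccase, had 6.48, 6.02 and 6.27 CPM in WT leaf against 22.3, 24.6 and 21.8 CPM in f3h leaf. In root it had 47.4, 52.7 and 47.0 CPM in WT and 13.9, 18.2 and 17.5 CPM in f3h. WT root was the highest group and WT leaf the lowest, with both f3h groups between them and no overlap. As a fitted log2 fold change, this was 1.90 ± 0.12 in leaf and -1.60 ± 0.10 in root.

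UGE-1 (Os05g0595100), a UDP-glucose 4-epimerase, interconverts UDP-glucose and UDP-galactose, the sugar donors of wall polymers and glycolipids. It had 33.9, 26.7 and 25.8 CPM in WT leaf, with 75.1, 80 and 79.1 CPM in f3h leaf, 26.2, 25.04 and 29.2 CPM in WT root and 10.8, 7.59 and 7.62 CPM in f3h root. The WT organs overlapped, and the f3h organs stood far apart. In the fit, the log2 fold change was 1.47 ± 0.12 in leaf and -1.66 ± 0.14 in root.

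The aquaporin PIP1-3 (Os02g0823100) was one of the 10 members with the highest mean CPM, a value that also grows with transcript length. Its level was 44.1, 47.7 and 52.5 CPM in WT leaf against 339.7, 355 and 334 CPM in f3h leaf. In root it was 1140.3, 1193 and 1110.2 CPM in WT and 479, 472 and 469 CPM in f3h. Root remained above leaf in f3h, but the log2 ratio of root over leaf went from 4.56 in WT to 0.46. The fitted log2 fold change was 2.86 ± 0.10 in leaf and -1.31 ± 0.04 in root.

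Cht8 (Os10g0542900), a chitinase, had 10.9, 13.4 and 16.6 CPM in WT leaf against 78.7, 79.0 and 77.3 CPM in f3h leaf. In root it had 21.4, 26.4 and 20.2 CPM in WT and 8.68, 12.0 and 10.4 CPM in f3h. The order of the organs turned, with root above leaf in WT and leaf above root in f3h. As a fitted log2 fold change, this was 2.55 ± 0.15 in leaf and -1.16 ± 0.14 in root, and Cht8 missed the root threshold when replicate 2 of WT root or replicate 1 of f3h root was left out.

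BGLU12 (Os04g0474800), a beta-glucosidase, belongs to a family that releases glucose from oligosaccharides and from glucosides of hormones and defence compounds. It had 82.8, 69.5 and 66.5 CPM in WT leaf, with 173, 172 and 169 CPM in f3h leaf, 157, 157 and 149.9 CPM in WT root and 69.4, 61.5 and 56.0 CPM in f3h root. The f3h root libraries lay in or below the range of WT leaf, and f3h leaf lay above every WT root library. In the fit, the log2 fold change was 1.26 ± 0.10 in leaf and -1.34 ± 0.07 in root.

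CIPK29 (Os07g0678300) is a protein kinase of the group that calcineurin B-like calcium sensors bind. It had 40.9, 30.5 and 40.03 CPM in WT leaf, with 107, 108 and 101 CPM in f3h leaf, 35.4, 35.2 and 38.1 CPM in WT root and 10.7, 10.6 and 8.47 CPM in f3h root. WT leaf and WT root overlapped, as for UGE-1, and the genotypes overlapped in neither organ. The fitted log2 fold change was 1.54 ± 0.12 in leaf and -1.90 ± 0.12 in root.

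ADF3 (Os03g0820500), an actin-depolymerizing factor, is one of the small proteins that sever and turn over actin filaments. It had 10.7, 13.5 and 14.7 CPM in WT leaf, with 57.8, 57.3 and 52.3 CPM in f3h leaf, 3.83, 3.95 and 3.77 CPM in WT root and 2.02, 1.07 and 1.60 CPM in f3h root. Leaf was above root in both genotypes. As a fitted log2 fold change, this was 2.13 ± 0.14 in leaf and -1.33 ± 0.32 in root, and the root threshold was missed without replicate 2 of f3h root.

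**Figure D4:**
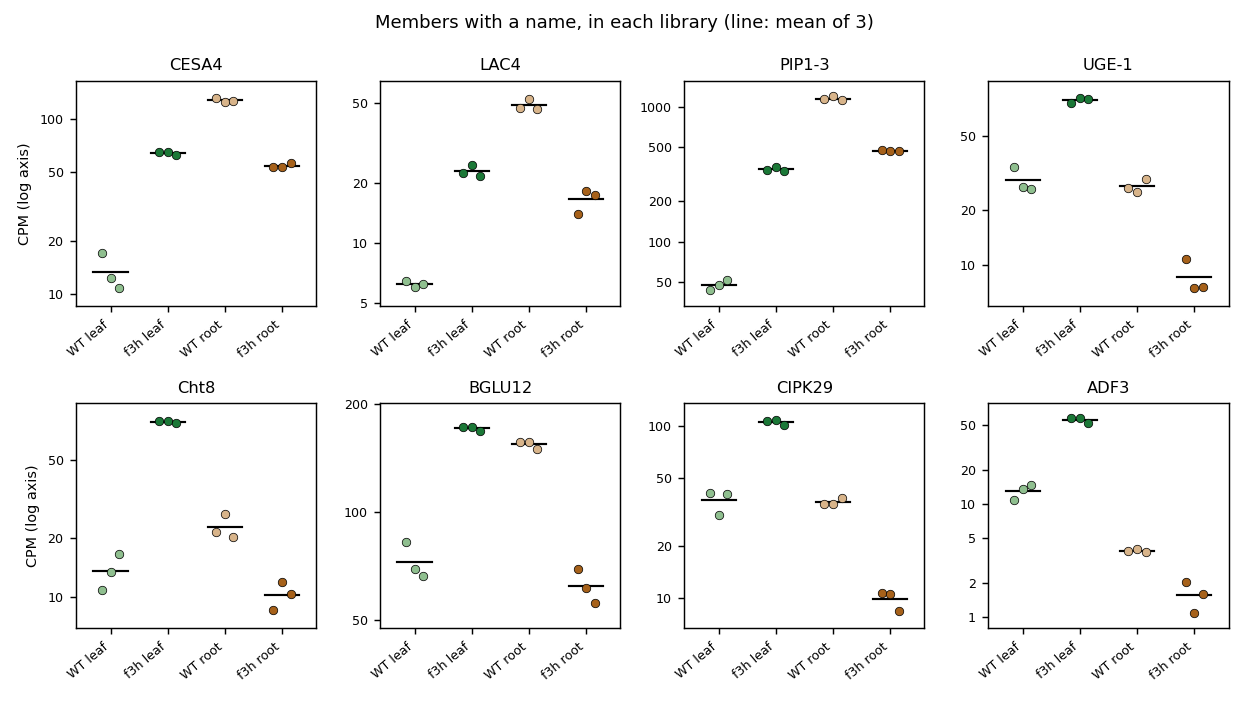
Level in CPM (log axis, its range set per panel) of the 8 members with a name in WT leaf, f3h leaf, WT root and f3h root (x axis). Points are the 3 libraries of a group and lines their means. In each panel f3h leaf lies above WT leaf and f3h root below WT root, while the order of the organs differs between panels.

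The members without a name include those with the largest changes. Os11g0592000 had the largest change in both organs, with 2.09, 1.37 and 1.71 CPM in WT leaf against 59.5, 68.6 and 65.8 CPM in f3h leaf. In root it fell from 81.8, 80.3 and 87.4 CPM in WT to 6.78, 8.95 and 10.5 CPM in f3h. The f3h leaf level approached that of WT root, and the fitted log2 fold change was 5.26 ± 0.16 in leaf and -3.28 ± 0.11 in root. The neighbouring locus Os11g0592100, with no counted locus between them, was also a member. It had 1.41, 0.628 and 1.09 CPM in WT leaf, with 29.3, 28.3 and 29.9 CPM in f3h leaf, 233, 237 and 233 CPM in WT root and 63.2, 64.8 and 58.0 CPM in f3h root. It stayed higher in root than in leaf in f3h, unlike its neighbour, and fell under the level minimum in WT leaf when replicate 1 of that group was left out. A second adjacent pair was Os02g0670900 and Os02g0671100. If either pair consists of near-identical copies, the counting could have split their reads between them, which was not tested.

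Os03g0103200 was higher in leaf than in root in both genotypes. It had 368, 191 and 206 CPM in WT leaf against 2172, 2189 and 2127 CPM in f3h leaf. In root it had 132, 137 and 122 CPM in WT and 41.3, 39.3 and 34.0 CPM in f3h. WT leaf replicate 1 was the highest of its group and still far below f3h leaf, and the fitted log2 fold change was 3.12 ± 0.23 in leaf and -1.80 ± 0.07 in root. With a mean of 2163 CPM, this locus alone supplied much of the summed f3h leaf level of 5253 to 5349 CPM.

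Os06g0591200 was higher in root than in leaf in both genotypes. It had 34.7, 20.05 and 24.04 CPM in WT leaf against 99.1, 114 and 104 CPM in f3h leaf. In root it had 1039, 1012 and 986 CPM in WT and 494, 489 and 489 CPM in f3h. The genotypes did not overlap in either organ. Os03g0663400 had 1.32, 3.06 and 3.70 CPM in WT leaf against 64.9, 70.9 and 64.6 CPM in f3h leaf, and its root level was 149, 190.2 and 168 CPM in WT and 43.9, 52.5 and 56.5 CPM in f3h. Its log2 ratio of root over leaf went from 5.73 in WT to -0.39 in f3h.

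Both changes were also large in Os10g0491000, Os02g0718600 and Os11g0644800. Os10g0491000 had a mean of 10.6 CPM in WT leaf, 52.2 in f3h leaf, 41.0 in WT root and 7.78 in f3h root, so that each organ in f3h came near the WT level of the other organ. Os02g0718600 had 1.57 and 9.81 CPM in leaf and 13.4 and 1.91 CPM in root, and it was lost from the set without replicate 2 of WT leaf. Os11g0644800 had 22.7 and 149.9 CPM in leaf and 5.64 and 1.18 CPM in root, and it was lost without replicate 3 of f3h root. Os10g0491000 and Os02g0718600 were higher in root in WT and in leaf in f3h, and Os11g0644800 was higher in leaf in both.

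A further 5 loci were taken for level or size of change. Os02g0670900 had means of 82.9 and 227 CPM in leaf and 116 and 52.7 CPM in root, WT first. Os02g0168100 had 63.0 and 168 CPM in leaf and 40.6 and 17.9 CPM in root. Os09g0480600 had 19.2 and 44.3 CPM in leaf and 247 and 113 CPM in root, and it was lost without replicate 1 of WT leaf. Of these 3, Os02g0168100 was higher in leaf in both genotypes and Os09g0480600 higher in root in both. Os08g0546100 had 5.44 and 18.8 CPM in leaf and 93.6 and 30.5 CPM in root. Os07g0683600 had 5.22 and 17.9 CPM in leaf and 78.9 and 26.3 CPM in root. Both kept root above leaf in f3h.

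The other 47 members had log2 ratios of 1.03 to 3.97 in leaf (median 1.41) and of -2.10 to -1.01 in root (median -1.34). Their median level was 3.41 CPM in WT leaf, 14.5 in f3h leaf, 23.0 in WT root and 6.85 in f3h root. Just inside the thresholds were Os10g0558700, with log2 ratios of 1.58 and -1.01, Os05g0278500, with 1.03 and -1.02, and Os02g0671100, with 2.42 and -1.02. Just outside were Os04g0223500, with 1.73 and -1.0, Os01g0249200, with 1.12 and -0.996, and Os05g0247100, with 2.24 and -0.99. The last of these had 612 and 2904 CPM in leaf and 3371 and 1692 CPM in root.

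The members were spread over 11 of the 12 chromosomes, with 12 each on chromosomes 1 and 2, 9 on chromosome 3, 7 each on 6 and 10, 6 on 11, and 2 to 4 on each of 4, 5, 7, 8 and 9. Chromosome 12, with 920 genes at 1 CPM or more, held none. Chromosomes 1 and 2 had 2375 and 1969 such genes.

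Genes that work beside the named members were then looked up. They were taken up after the members' values had been seen, and their values were not part of the choice. CESA4 acts in one complex with CESA7 and CESA9 in secondary walls, and both of these passed the test in the same directions. Both had less than 1 CPM in WT leaf and so did not meet the level minimum, and CESA9 did not meet the root ratio either. CESA7 (Os10g0467800) had 0.192, 0.0286 and 0.207 CPM in WT leaf against 1.74, 1.42 and 1.27 CPM in f3h leaf, and 2.84, 3.40 and 2.26 CPM in WT root and 1.67, 0.788 and 0.969 CPM in f3h root. Its groups did not overlap in either organ. The log2 fold change was 3.38 ± 0.61 in leaf (edgeR, adjusted p = 0.00224) and -1.34 ± 0.39 in root (edgeR, adjusted p = 0.00489).

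CESA9 (Os09g0422500) had 1.06, 0.428 and 0.325 CPM in WT leaf against 2.01, 1.86 and 2.78 CPM in f3h leaf, and 5.51, 5.09 and 4.01 CPM in WT root and 2.17, 2.40 and 2.61 CPM in f3h root. The log2 fold change was 1.91 ± 0.46 in leaf (edgeR, adjusted p = 0.0105) and -1.05 ± 0.27 in root (edgeR, adjusted p = 0.00169). Without replicate 3 of f3h leaf the leaf value was 1.74 with an edgeR adjusted p of 0.0511, and without replicate 1 of WT leaf, the library that stood apart, it was 2.58 with an edgeR adjusted p of 2.93e-05. Apart from CESA4, whose calls follow from the choice, CESA7 and CESA9 were thus called higher in f3h leaf and lower in f3h root. This pair of calls fell on 5.02% of the 20896 genes tested in both organs. Of the 5 looked up cellulose synthases of primary walls, the walls of growing cells, 0 were called higher and 3 lower in f3h leaf, and all 5 were lower in f3h root. Over all genes tested, 18.6% were called lower in leaf and 25.4% in root. The loci taken for CESA1, CESA3 and CESA8 did not pass the check of names by place, so their identity is less sure. CESA6 (Os07g0252400) changed by -1.22 ± 0.14 in leaf (edgeR, adjusted p = 0.000167) and -1.12 ± 0.06 in root (edgeR, adjusted p = 4.03e-16). CESA5 (Os03g0837100) changed by -0.65 ± 0.15 in leaf (edgeR, adjusted p = 0.00935) and -0.83 ± 0.06 in root (edgeR, adjusted p = 1.43e-12).

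LAC10 (Os03g0273200), another laccase, had 4.07, 5.397 and 3.61 CPM in WT leaf against 40.2, 41.4 and 37.4 CPM in f3h leaf. In root it had 40.5, 39.5 and 46.6 CPM in WT and 19.3, 18.98 and 25.02 CPM in f3h. The log2 fold change was 3.21 ± 0.16 in leaf (edgeR, adjusted p = 9.36e-07) and -1.03 ± 0.11 in root (edgeR, adjusted p = 2.57e-09). BC1 (Os03g0416200), a COBRA-like protein that the cellulose of secondary walls requires in rice, changed by 3.08 ± 0.47 in leaf (edgeR, adjusted p = 0.000861) and -1.08 ± 0.30 in root (edgeR, adjusted p = 0.00414), from a mean of 0.255 CPM in WT leaf. Its leaf value was 3.67 without replicate 2 of WT leaf. Both calls were not made for the xylan synthesis genes. IRX9L (Os01g0675500) fell in root by 0.69 ± 0.06 on the log2 scale (edgeR, adjusted p = 2.80e-10) with 0.11 ± 0.11 in leaf (edgeR, adjusted p = 0.433), and IRX14 (Os06g0687900) fell in root by 0.42 ± 0.06 (edgeR, adjusted p = 6.09e-07) with 0.17 ± 0.11 in leaf (edgeR, adjusted p = 0.270).

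IRX9 (Os07g0694400) had 1.35, 1.999 and 1.54 CPM in WT leaf and no count in any f3h leaf library. Against a floor of 3 counts over that group, this was at least 58.4-fold lower. In root it had 1.24, 1.90 and 1.38 CPM in WT and 1.71, 1.61 and 1.64 CPM in f3h, a log2 fold change of 0.10 ± 0.40 (edgeR, adjusted p = 0.853). In bulk organs, fewer cells of a type and less RNA per cell cannot be told apart, here and for every gene above.

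**Figure D5:**
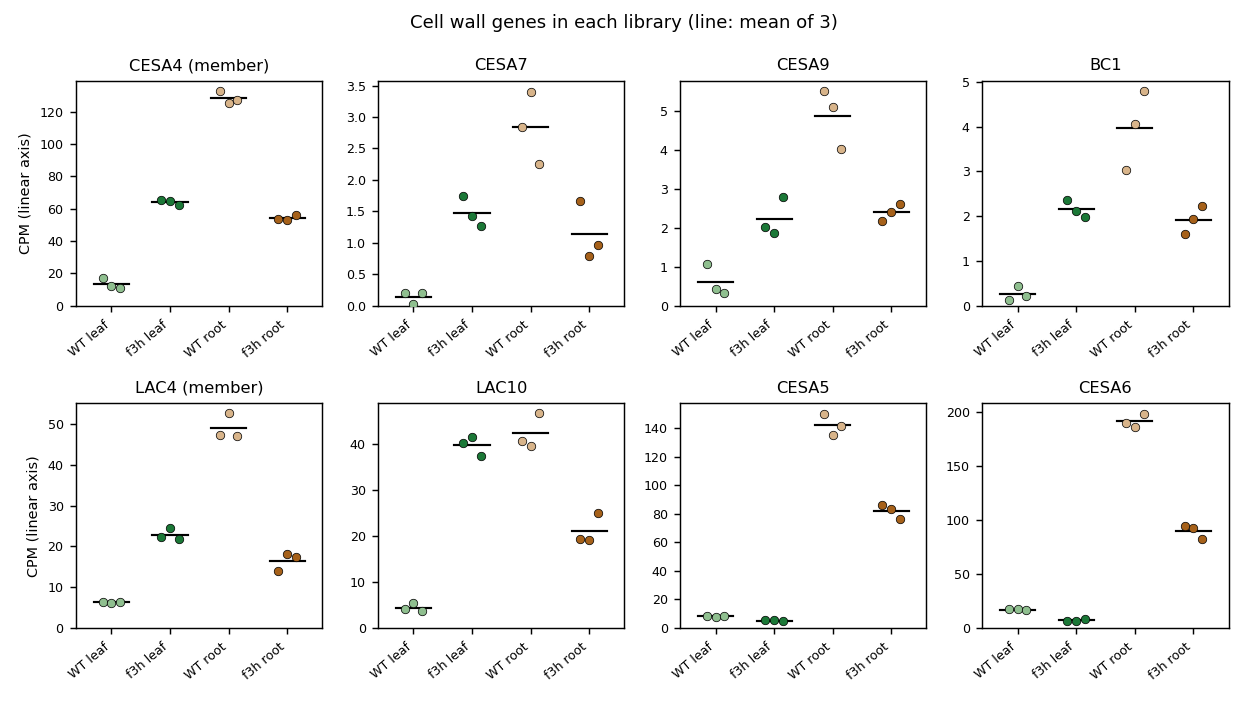
Level in CPM (linear axis from 0, its range set per panel) of 8 cell wall genes in WT leaf, f3h leaf, WT root and f3h root (x axis). Points are the 3 libraries of a group and lines their means. CESA4, CESA7, CESA9, BC1, LAC4 and LAC10 are higher in f3h leaf and lower in f3h root than in WT. CESA5 and CESA6 are lower in f3h in both organs. The xylan synthesis genes IRX9, IRX9L and IRX14, which did not have both calls, are not drawn.

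Relatives of the other named members differed among themselves. The chitinase Cht1 (Os06g0726200) changed in the same directions as Cht8, by 1.07 ± 0.09 in leaf (edgeR, adjusted p = 3.01e-05) and -0.80 ± 0.04 in root (edgeR, adjusted p = 2.79e-16). Cht3 (Os06g0726100) had -0.18 ± 0.36 in leaf (edgeR, adjusted p = 0.730) and fell by 0.81 ± 0.07 in root (edgeR, adjusted p = 5.52e-11). BGLU13 (Os04g0474900), a beta-glucosidase with the next locus number after BGLU12, changed by 0.68 ± 0.12 in leaf (edgeR, adjusted p = 0.00198) and -0.59 ± 0.10 in root (edgeR, adjusted p = 1.10e-05). ADF5 (Os03g0243100) rose in leaf by 2.90 ± 0.18 (edgeR, adjusted p = 3.27e-06) with -0.07 ± 0.05 in root (edgeR, adjusted p = 0.319). ADF4 (Os03g0820600), which follows ADF3 in locus number, had 0.25 ± 0.19 in leaf (edgeR, adjusted p = 0.316) and rose by 0.25 ± 0.05 in root (edgeR, adjusted p = 0.000101). UGE-3 (Os09g0526700) fell in both organs, by 1.28 ± 0.13 in leaf (edgeR, adjusted p = 6.63e-05) and 1.29 ± 0.14 in root (edgeR, adjusted p = 7.34e-09). CIPK2 (Os07g0678600), near CIPK29 on chromosome 7, also fell in both, by 0.94 ± 0.11 in leaf (edgeR, adjusted p = 0.000167) and 0.77 ± 0.05 in root (edgeR, adjusted p = 3.15e-14). With the members included, 2 of 4 such kinases were called higher and 2 lower in leaf (17.9% and 18.6% of all genes). In root 1 was higher and 3 lower (24.9% and 25.4% of all genes). Of 4 UDP-glucose 4-epimerases, 1 was higher and 1 lower in leaf, and 0 were higher and 3 lower in root. Of 5 actin-depolymerizing factors tested in leaf, 2 were higher and 0 lower, and of 6 tested in root, 1 was higher and 2 lower.

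Among 13 aquaporins, 10 were tested in leaf, where 3 were called higher and 4 lower, with a median log2 fold change of 0.05. Over all genes tested, 17.9% were called higher and 18.6% lower in leaf, and 24.9% higher and 25.4% lower in root. In root all 13 were tested, 3 were higher and 8 lower, and the median was -0.41. PIP1-3 was 1 of 2 that were higher in leaf and lower in root, and the other was unnamed. PIP1-1 (Os02g0666200) had -0.41 ± 0.10 in leaf (edgeR, adjusted p = 0.0131), a call that was lost without replicate 1 or 3 of f3h leaf (edgeR, adjusted p = 0.0642 and 0.0683), and fell by 0.49 ± 0.03 in root (edgeR, adjusted p = 4.08e-13). PIP1-2 (Os04g0559700) had 0.42 ± 0.23 in leaf (edgeR, adjusted p = 0.179) and fell by 0.82 ± 0.09 in root (edgeR, adjusted p = 3.40e-09). Its leaf value was 0.16 and passed the test when replicate 1 of WT leaf was left out (edgeR, adjusted p = 0.0363).

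Over 17 gene lists of 338 loci, 3 loci were members: PIP1-3, Cht8 and the unnamed Os01g0626400, which stood in the list of pathogenesis-related genes and WRKY factors. Of 21 genes of phenylpropanoid and flavonoid synthesis, the pathways that feed lignin and the flavonoids, none was a member. In leaf 6 of 17 tested were called higher and 5 lower, with a median log2 fold change of -0.07, and in root 0 of 15 were higher and 12 lower, with a median of -1.05. The medians over all genes tested were -0.02 in leaf and 0.01 in root. Both calls, higher in leaf and lower in root, fell on 6 of the 15 tested in both organs, against 5.02% of all genes.

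These 6 included 4CL3 (Os02g0177600), a 4-coumarate:CoA ligase, with 0.59 ± 0.10 in leaf (edgeR, adjusted p = 0.00138) and -0.87 ± 0.05 in root (edgeR, adjusted p = 2.40e-15). CAD2 (Os02g0187800), the cinnamyl alcohol dehydrogenase that makes monolignols, had 0.82 ± 0.10 in leaf (edgeR, adjusted p = 0.000284) and -0.48 ± 0.05 in root (edgeR, adjusted p = 1.34e-09). Both changes were too small for the 2-fold thresholds in each organ. CHS1 (Os11g0530600), the chalcone synthase at the entry to the flavonoids, had 2.23 ± 0.15 in leaf (edgeR, adjusted p = 6.64e-06) and -1.68 ± 0.70 in root (edgeR, adjusted p = 0.0479). The root levels of CHS1 were 0.656, 1.21 and 0.472 CPM in WT and 0.233, 0.251 and 0.253 CPM in f3h, and the root call was lost when any 1 root library was left out (edgeR, adjusted p from 0.0508 to 0.290).

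The other lists were counted in the same way. Both calls fell on 4 of 34 tested loci in the list of pathogenesis-related genes and WRKY factors, and on 6 of 52 in that of water deficit and abscisic acid. In each of the remaining 14 lists 0 to 3 loci had both calls. Among these were 3 of 12 antioxidant enzymes, 2 of 10 aquaporins and 3 of 17 genes of nitrogen and phosphate. Lower shares were 0 of 10 circadian clock genes and 0 of 14 hormone growth genes. The lists of iron and metal homeostasis and of jasmonate had 2 of 24 and 2 of 22. Over all genes the share was 5.02%.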

How the data were processed

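Total RNA of leaf and root was made into mRNA libraries, per the labels' protocols. For 12 libraries the authors deposited whole-number counts of reads for each gene, not normalized. The submitters' processing notes name fastp, HISAT2, featureCounts and DESeq without versions. The sources used here do not give the build, the annotation or the strand setting. Overlapping, antisense and near-identical genes are uncertain to that extent.

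CPM was computed from library totals with Python 3.11.15 and pandas 2.3.3. CPM is not scaled to gene length, so levels are compared between groups, not between genes. Counts were fitted in R 4.3.3 with the quasi-likelihood test of edgeR 4.0.16 (filterByExpr, TMM, Benjamini-Hochberg adjustment over all genes tested, threshold 0.05), within leaf, within root, and over all 12 libraries with an interaction term of genotype and organ. The SE beside a log2 fold change was derived from the test, as the absolute log2 fold change over the square root of the quasi-likelihood F. Each organ had 3 against 3 libraries, for which an exact two-sided permutation test cannot give a p below 0.1, so none was run. The fits were tested on simulated counts, where 65% of 2-fold and 90.0% of 4-fold changes were recovered in the leaf comparison of 22107 genes, 75.8% and 93.9% in the root comparison of 24356, and 45% and 80% for the interaction over 26134. False calls numbered 5, 7 and 2. Only 100 genes were changed at each fold, none at very low counts. The real fits called 36.5% of genes in leaf and 50.3% in root, so these recovery rates need not hold for them. Alternatives used DESeq2 1.42.0 and limma 3.58.1.

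The members and the gene lists were chosen with earlier results of these data known. Members described singly were those with a name, the 10 highest by mean CPM, the 10 with the largest smaller change, and those next to the thresholds. Pairs of name and locus were written from memory, since the RefSeq table of assembly ASM3414082v1 gave only 1 of 37849 Os loci directly. Names were kept where that table held the name on the chromosome of the locus and within 10% of its place. So wide a window holds many loci, and AMT1-2 and AMT1-3 both passed on the same reference gene. The check therefore does not settle the identity of any named gene. This held for 224 of 375 pairs tried. Counts over gene lists and families took every listed locus that was counted, also those whose name did not pass this check. Groups by gene description and promoter motifs were not run, since neither descriptions nor promoters were at hand, and no sequence is shown. A few loci are not reported here.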

Additional observations from a re-analysis of the deposited data

Results flagged for a closer look

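For 13 of the genes named beside the members, the f3h effect differed between root and leaf by the interaction term (edgeR, adjusted p under the threshold). Over all genes tested, the interaction called 33.4%, and 17.4% with the root effect below the leaf effect. The log2 difference, root minus leaf, was -4.73 for CESA7, -2.97 for CESA9, -4.25 for LAC10 and -4.16 for BC1. It was -0.81 for IRX9L and -0.60 for IRX14. It was -1.87 for Cht1, -1.28 for BGLU13, -2.97 for ADF5 and -1.25 for PIP1-2. It was -1.47 for 4CL3, -1.30 for CAD2 and -3.90 for CHS1. CESA5, CESA6, Cht3, ADF4, PIP1-1, CIPK2 and UGE-3, also named beside the members, did not pass. IRX9 is left out of the 13 because it had no count in f3h leaf. Its interaction was called in the other direction, with the root effect above the leaf effect. These genes were named after the members' values were seen, and the members' own differences are not given as a result, since both effects chose them.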

How the results depend on the processing

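The set of 68 members depended most on its thresholds: it held 179 genes with no level minimum and 27 with a minimum of 5 CPM, 284 with a fold of at least 1.5 and 8 with a fold of at least 3. It held 79 genes with TMM-scaled CPM and 78 with DESeq2 size factors (64 of the members each), and 82 or 57 with an offset of 0.1 or 1 CPM. Leaving out 1 library gave 68 to 77 genes. Without replicate 1 of WT leaf 10 members were lost and 10 genes gained, and 44 members were chosen whichever library was left out. Genes called numbered 8188 in leaf, 12362 in root and 8806 for the difference between organs, and 5790 to 11144, 10937 to 11846 and 7709 to 10584 with 1 library left out. These 3 counts stayed within 1.5 times under DESeq2, limma voom, upper quartile normalization, no filter and library totals only, the last chosen after seeing the data. With the replicate number as a block, the counts were 7449, 12225 and 8223. Same-numbered libraries shared only a number: their deviations correlated at 0.017, 0.019 and -0.079 in leaf and at 0.0048, 0.019 and 0.028 in root, and in leaf not every library correlated best with its own number.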
